A study of Mus musculus with 20 samples.

Results

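Neutrophil and granule genes are the 10 genes S100a8, S100a9, Ngp, Camp, Ltf, Lcn2, Retnlg, Ly6g, Cd177 and Csf3r, chosen by name as genes for which mouse neutrophils are known. Each was found by its Entrez identifier among the 36528 gene models counted in every library, and 7 of the 10 passed the low-count filter and were tested. The other 3, Ngp, Camp and Ly6g, had enough reads for the filter in too few libraries and are described by their counts.

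Macrophages and monocytes were sorted on day 7 of treatment from MC38 tumours, which grow from a transplantable mouse colon carcinoma line, and their RNA was sequenced. The 20 libraries form 4 groups of 5: macrophages and monocytes of control tumours, and macrophages and monocytes of tumours treated with anti-PD-L1 (aPDL1 in the labels), an antibody against the checkpoint ligand PD-L1. The labels name no mouse strain, age, control agent, dose or sort gate. Nor do they state whether each of the 5 libraries in a group is its own animal, and the p-values below therefore reflect differences among these libraries, possibly technical. Sample numbers of control libraries all precede those of treated ones, so treatment and sample order cannot be told apart.

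In the course of their maturation in the bone marrow, neutrophils fill sets of granules one after another: primary granules with myeloperoxidase and elastase, then specific granules with lactoferrin (Ltf), cathelicidin (Camp), neutrophilic granule protein (Ngp) and lipocalin-2 (Lcn2), and last the gelatinase granules. S100A8 and S100A9 form calprotectin, a calcium-binding pair that fills the neutrophil cytosol and is also made by classical monocytes. Granule transcripts are mostly made before a neutrophil leaves the marrow, whereas the receptor for granulocyte colony stimulating factor (G-CSF, receptor gene Csf3r) is kept on the mature cell and is also found on monocytes.

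Depth was even, from 30191509 to 36514133 counted reads per library, so 3 reads in a library correspond to about 0.1 CPM, the count scaled to library size. The labelled cell types were checked against markers: all 12 monocyte markers were lower in macrophages than in monocytes under both treatments, among them Ly6c2 (means 5.42 in control macrophages and 910 in control monocytes) and Ccr2 (246 and 1035), and 8 of 12 macrophage markers were higher, among them Adgre1 (1071 and 311) and C1qa (3999 and 554). Of the other 4, Fcgr1 was lower in macrophages under both treatments (log2 fold change -0.46 in each), and Cd68, Csf1r and Maf were not called. Fibroblast RNA differed between libraries: the summed CPM of 19 fibroblast markers ran from 147 to 2932 in control macrophages, 95.8 to 521 in treated macrophages, 449 to 4595 in control monocytes and 94.1 to 756 in treated monocytes, with Col3a1 falling from a mean of 883 to 117 CPM between the monocyte groups. Results on treatment are therefore also given with the fibroblast level in the model and without the 6 control libraries highest in it. The only controls left are then macrophage libraries 2 and 4 and monocyte libraries 2 and 5. The fibroblast level was mostly higher in control libraries, so its part and that of treatment cannot be told apart. Of the tumour epithelium markers, Epcam had group means of 0.117 to 0.384 CPM and Cdh1 group means of 31.7 to 76.2 CPM.

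All 7 tested genes were lower in macrophages than in monocytes under both treatments, as were 20% (control) and 25.7% (treated) of all genes. All but Csf3r passed the low-count filter through monocytes alone and had to differ. With anti-PD-L1, Csf3r alone was called higher, in both cell types, as were 9.92% (monocytes) and 1.73% (macrophages) of all genes. Neither call held with the fibroblast level in the model or without the control libraries richest in it. The macrophage call was also lost in 8 of 20 fits without 1 library. Csf3r was high in every monocyte library, and Cd177 was high in monocytes and near 0 in macrophages. S100a8, S100a9, Retnlg, Ltf, Lcn2 and Ly6g varied between 3.38- and 16.7-fold among monocyte libraries of 1 group, mostly together, and Ly6g, Ngp and Camp were present in few reads.

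S100a8 (Entrez 20201, chr3:90669071-90670034 on GRCm38) and S100a9 (Entrez 20202, chr3:90692630-90695721, opposite strand) lie 22.6 kb apart. In monocytes, S100a8 reached 60.1, 8.46, 22.6, 75.6 and 12 CPM in control libraries 1 to 5 and 80.2, 65.2, 7.99, 29.2 and 23.3 CPM in treated libraries 1 to 5. In macrophages it lay between 0.057 and 0.461 CPM in control and between 0.027 and 0.922 CPM in treated libraries. Every monocyte library was thus above every macrophage library, while the monocyte groups overlapped over nearly their whole range.

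S100a9 reached 120, 11.7, 50.6, 181 and 11.8 CPM in the control monocyte libraries and 173, 140, 16.1, 59.6 and 44.6 CPM in the treated ones. Macrophage libraries held between 0 and 0.514 CPM of it, with 1 control and 1 treated library at 0. The libraries that were high for S100a8 were high for S100a9: control 4 and 1, and treated 1 and 2. Pooled over 5 libraries, the monocyte level was 187-fold (control) and 128-fold (treated) that of macrophages for S100a8, and 342-fold and 1116-fold for S100a9. These folds rest on 37 and 54 macrophage reads of S100a8 and on 43 and 13 of S100a9. Their size, and how it differs between treatments, is therefore uncertain.

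The tested difference of macrophages minus monocytes in control tumours was a log2 fold change of -7.46 ± 0.90 (SE) for S100a8 (edgeR adjusted p = 1.99e-06) and -8.31 ± 0.99 for S100a9 (adjusted p = 1.63e-06). In treated tumours it was -6.98 ± 0.87 for S100a8 (edgeR adjusted p = 1.75e-06) and -10.07 ± 1.14 for S100a9 (adjusted p = 5.38e-07).

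The specific granule genes gave far fewer reads. Ngp (Entrez 18054, chr9:110419808-110423012) had 44, 7, 10, 219 and 0 reads in control monocyte libraries 1 to 5 and 57, 5, 1, 9 and 0 reads in treated ones. In macrophages, 1 read of Ngp was counted in all 10 libraries together. Control library 4 alone held 219 of the 280 control monocyte reads, and 1 monocyte library of each group had none, so the groups touched at 0. The pooled monocyte level was at least 99.4-fold higher in control tumours, taking 3 reads over the 5 macrophage libraries as the floor, and 80.4-fold (95% counting interval 14 to 3218) in treated tumours.

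Camp (Entrez 12796, chr9:109847377-109849456), the cathelicidin gene, had 4, 3, 4, 41 and 1 reads in the control monocyte libraries and 6, 0, 0, 3 and 0 in the treated ones. No macrophage library held a read of it, which allows up to 3 reads over each group of 5. The pooled monocyte level was at least 18.8-fold higher in control and at least 3.36-fold higher in treated tumours by the same floor. As with Ngp, control library 4 and treated library 1 were the highest, and 3 treated libraries were at 0.

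Ltf (Entrez 17002, chr9:111019292-111042766), which encodes the iron-binding protein lactoferrin, stood at 1.89, 0.971, 1.55, 3.30 and 0.334 CPM in control and 3.14, 1.95, 0.968, 1.04 and 0.821 CPM in treated monocyte libraries. Macrophages held 0.104 to 0.243 CPM (control) and 0.0811 to 0.430 CPM (treated). The ranges did not overlap under either treatment, though the lowest control monocyte library, number 5, was close to the macrophages. The log2 fold change of macrophages minus monocytes was -3.12 ± 0.54 in control (edgeR adjusted p = 0.000118) and -2.51 ± 0.53 in treated tumours (adjusted p = 0.000492). Without the 6 control libraries richest in fibroblast markers, the control difference was -1.92, with an edgeR adjusted p of 0.0648.

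Lcn2 (Entrez 16819, chr2:32384637-32387739), which encodes a protein that binds bacterial iron carriers, was the most abundant of the 4 specific granule members. Its levels were 11.8, 5.67, 4.55, 19.0 and 14.6 CPM in control and 14.2, 3.91, 2.06, 3.79 and 2.53 CPM in treated monocyte libraries, against at most 0.231 (control) and 0.403 CPM (treated) in macrophages. Among treated libraries number 1 stood far above the other 4. The log2 fold change of macrophages minus monocytes was -7.23 ± 0.78 in control (edgeR adjusted p = 5.17e-07) and -4.76 ± 0.69 in treated tumours (adjusted p = 1.02e-05).

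Retnlg (Entrez 245195, chr16:48872608-48874498), a secreted resistin-like protein of neutrophils, stood at 5.97, 0.940, 9.60, 15.7 and 1.27 CPM in control and 17.3, 16.5, 3.71, 4.44 and 5.75 CPM in treated monocyte libraries. Macrophages held 0 to 0.340 CPM (control) and 0.0586 to 2.12 CPM (treated). No macrophage library reached the lowest monocyte library of its treatment, and treated macrophage library 4 was the highest macrophage library. The log2 fold change of macrophages minus monocytes was -5.52 ± 0.99 in control (edgeR adjusted p = 0.00015) and -3.58 ± 0.85 in treated tumours (adjusted p = 0.00138).

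**Figure D1:**
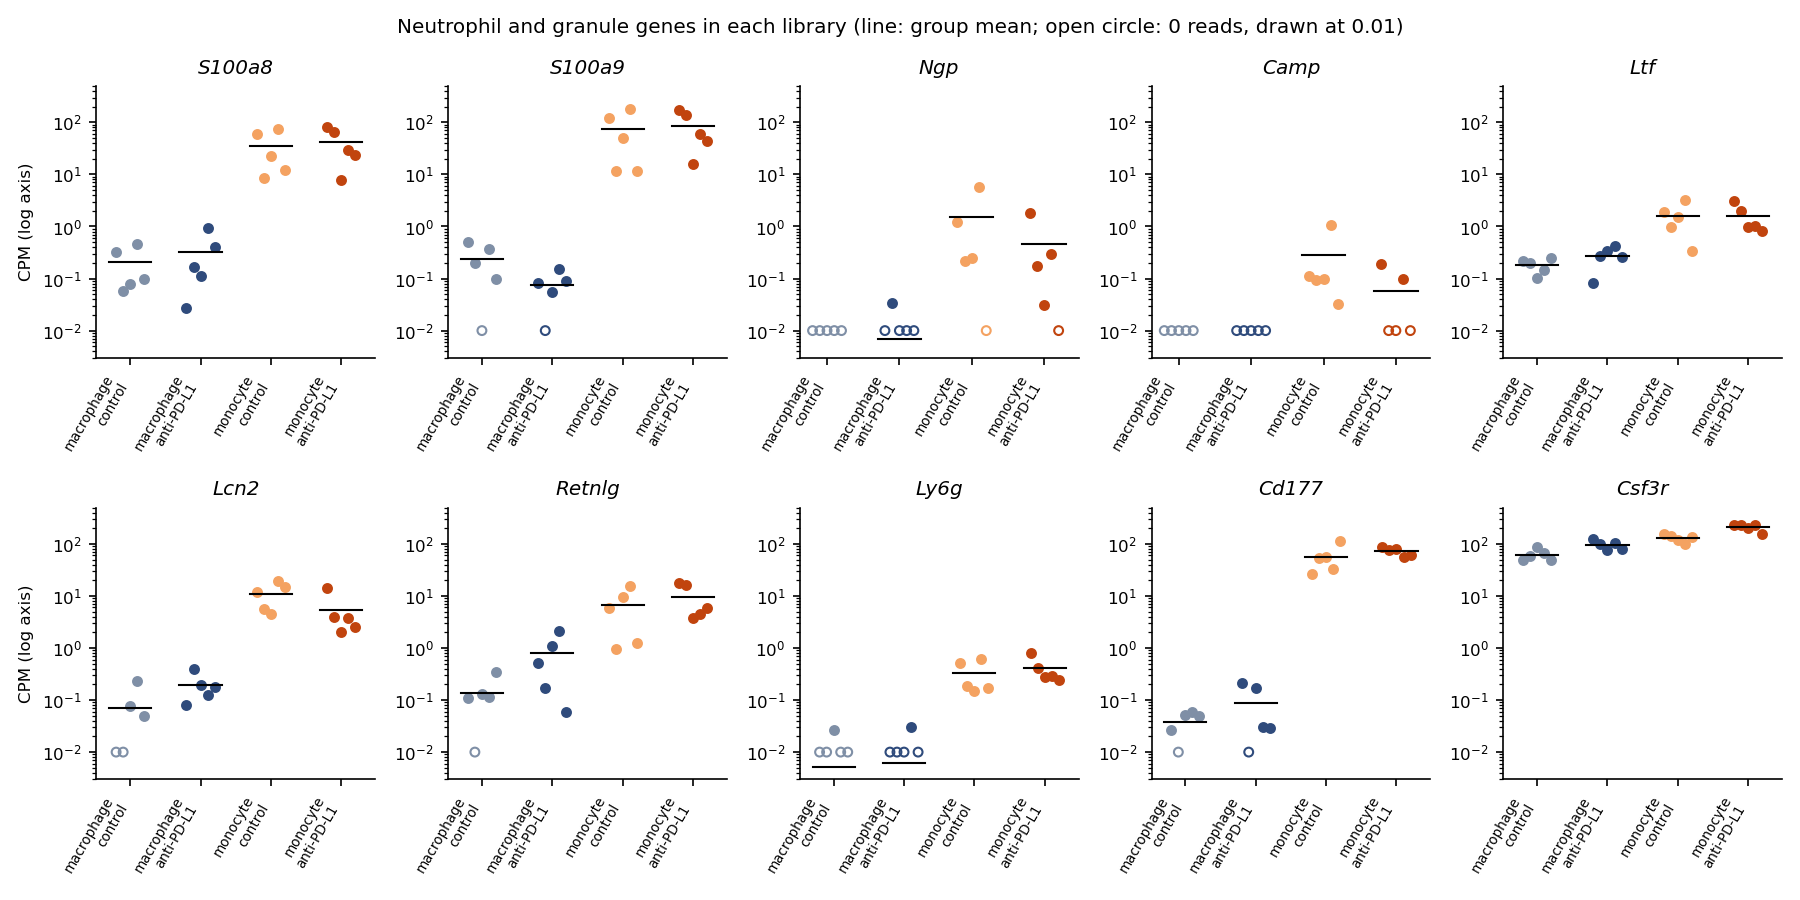
Level of each of the 10 genes in every library, in CPM on a log axis, with a point per library, a line at the group mean and open circles for libraries with 0 reads, drawn at 0.01. S100a8, S100a9 and Retnlg spread widely among monocyte libraries (S100a8 from 7.99 to 80.2 CPM), whereas Csf3r stays between 48.3 and 233 CPM over all 20 libraries.

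Ly6g (Entrez 546644, chr15:75155261-75159128) encodes the surface protein by which mouse neutrophils are usually recognised. It had 18, 6, 6, 23 and 5 reads in control monocyte libraries and 25, 12, 9, 9 and 7 in treated ones, and 1 read in the 5 macrophage libraries of each treatment. Reads of Ly6g were thus present in 10 of 10 monocyte libraries and in 2 of 10 macrophage libraries. Control monocytes had a mean of 0.325 ± 0.218 (SD, n = 5) CPM and treated monocytes one of 0.408 ± 0.234 CPM. The pooled fold over macrophages was 61.8 (95% counting interval 10.7 to 2482) in control and 69.2 (12 to 2777) in treated tumours. Ly6g has closely similar Ly6 relatives, so its count is uncertain.

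Cd177 (Entrez 68891, chr7:24743983-24760334) encodes a surface glycoprotein of neutrophils that takes part in their adhesion. Its levels in monocytes were 27.0, 53.6, 55.7, 33.3 and 112 CPM in control and 85.6, 77.3, 79.3, 56.2 and 60.4 CPM in treated libraries. In macrophages it was at or under 0.0576 CPM (control) and 0.216 CPM (treated), and 7 and 16 reads were counted over the 5 libraries of each group. Monocytes and macrophages did not overlap, and the pooled fold was 1447 in control and 760 in treated tumours. The log2 fold change of macrophages minus monocytes was -10.42 ± 0.55 in control (edgeR adjusted p = 7.18e-11) and -9.52 ± 0.51 in treated tumours (adjusted p = 5.39e-11).

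Csf3r (Entrez 12986, chr4:126023441-126044975) was the one member that macrophages also carried at a substantial level. Control macrophages held 48.3, 59.5, 86.6, 65.5 and 49.0 CPM and treated macrophages 124, 98.8, 77.3, 104 and 78.4 CPM. Control monocytes held 152, 140, 120, 97.4 and 138 CPM and treated monocytes 233, 233, 205, 232 and 156 CPM. Monocytes lay above macrophages under both treatments without overlap, but only 2.09-fold (control) and 2.19-fold (treated) in pooled reads. The log2 fold change of macrophages minus monocytes was -1.07 ± 0.17 in control (edgeR adjusted p = 5.04e-05) and -1.14 ± 0.17 in treated tumours (adjusted p = 1.72e-05).

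Counted together, 7 of 7 tested members were lower in macrophages in control tumours, where 44.1% of the 15390 genes tested were called in either direction and 20% lower. In treated tumours the count was again 7 of 7, against 53.9% called and 25.7% lower among all genes. The macrophage and monocyte ranges of all 7 were apart in both treatments, as they were for 10.9% (control) and 22.0% (treated) of all genes in that direction. Of the untested members, Ly6g was apart in both, Camp in control alone and Ngp in neither. A gene that passed the low-count filter through its monocyte libraries alone had to differ, so these counts lend the differences no support. All tested members but Csf3r passed in that way, and their p-values are to be read with that limit. The 7 calls held in each of the 20 fits that left out 1 library, which adds little for those members. Without the low-count filter, all 10 members were lower in macrophages in control tumours and 9 in treated tumours, the exception being Camp (edgeR adjusted p = 0.114).

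Levels of different genes can be compared per transcript length, for which the deposited nRPKM values (an RPKM, reads per length and depth, normalised by the authors) were used. In control monocytes the order of mean nRPKM levels was S100a9 (140 ± 137, SD, n = 5), S100a8 (89.6 ± 75.1), Csf3r (28.9 ± 5.07), Cd177 (20.5 ± 12.6), Lcn2 (12.9 ± 6.95), Retnlg (10.8 ± 9.84), Ngp (1.26 ± 2.05), Ltf (0.576 ± 0.391), Camp (0.465 ± 0.727) and Ly6g (0.323 ± 0.213). The ranges of all neighbours in that order overlapped. In treated monocytes S100a9 (162 ± 123) and S100a8 (103 ± 75.0) again came first, Csf3r (46.9 ± 7.13) lay above Cd177 (25.9 ± 4.46) without overlap, Retnlg stood at 15.4 ± 10.8, and Lcn2 (6.10 ± 5.73) lay above Ltf (0.569) without overlap. In macrophages Csf3r stood first by far (13.3 ± 3.29 nRPKM in control, where S100a8 was next at 0.501, and 21.0 ± 4.12 in treated libraries, where Retnlg was next at 1.26). Mean levels hide a change of order among monocyte libraries: S100a9 was 15.8 times Csf3r in control library 4 but 0.711, 0.722 and 0.668 times Csf3r in control libraries 2 and 5 and treated library 3.

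**Figure D2:**
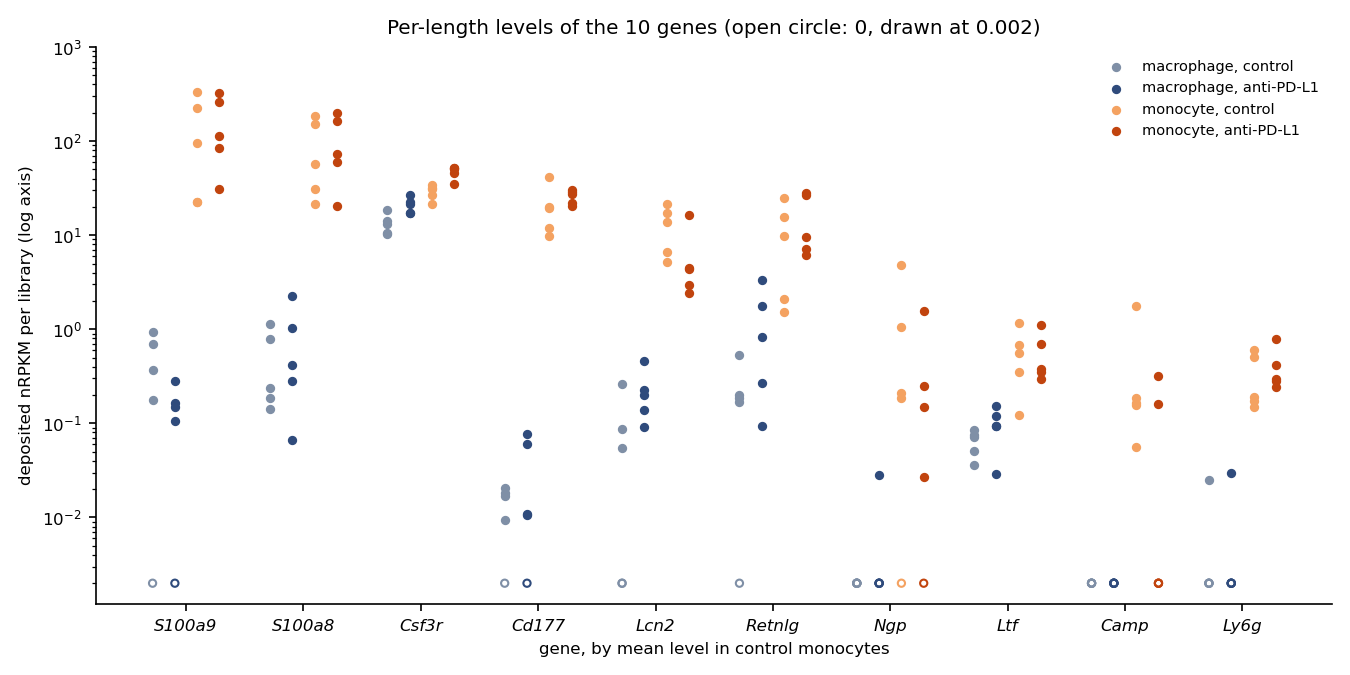
Deposited nRPKM of the 10 genes in every library on a log axis, ordered by the mean in control monocytes, with colours for the 4 groups and open circles for 0, drawn at 0.002. In monocytes S100a9 and S100a8 lead by their means (140 and 89.6 in control), and in macrophages Csf3r (13.3 in control) stands above the other 9.

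Monocyte libraries of a group differed from each other in most of these genes by more than the groups differed. The highest library over the lowest was 8.94-fold in control and 10-fold in treated monocytes for S100a8, 15.5- and 10.7-fold for S100a9, 16.7- and 4.67-fold for Retnlg, 9.86- and 3.82-fold for Ltf, 4.18- and 6.90-fold for Lcn2, and 4.07- and 3.38-fold for Ly6g. The same ratio was 4.17 and 1.52 for Cd177, and 1.56 and 1.5 for Csf3r. Control library 4 and treated library 1 were the highest of their groups for S100a8, S100a9, Retnlg, Ngp, Camp, Ltf, Lcn2 and Ly6g. For Cd177 the highest were control library 5 and treated library 1, and control library 4 was the lowest of its group for Csf3r.

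**Figure D3:**
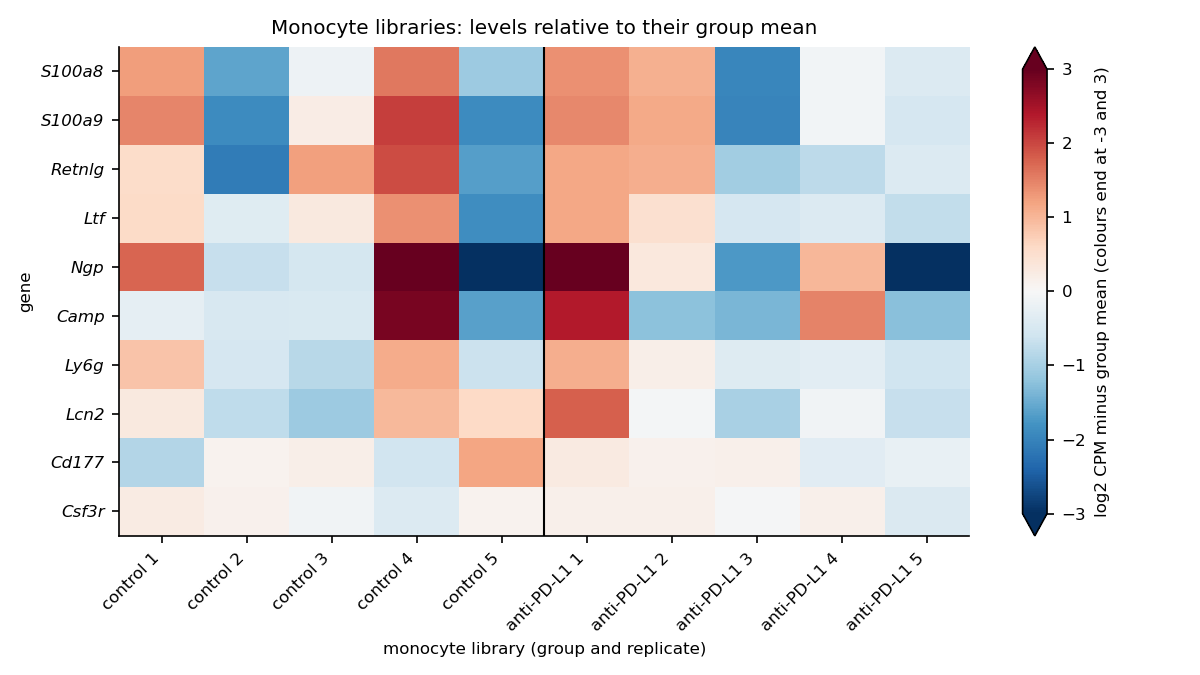
Log2 CPM of each gene in each of the 10 monocyte libraries minus the mean of its group, as colour from blue (below) to red (above), ending at -3 and 3. Control library 4 and treated library 1 are red from S100a8 down to Lcn2, while the Csf3r line stays pale.

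The deviations of the 10 monocyte libraries from their group means moved together for most members. Pearson's r with S100a8 was 0.98 for S100a9 (Spearman's rho 0.98), 0.86 for Retnlg (0.81), 0.82 for Ly6g (0.77), 0.80 for Ltf (0.84), 0.77 for Ngp (0.89), 0.67 for Lcn2 (0.71) and 0.62 for Camp (0.82). It was -0.01 for Csf3r (0.32) and -0.49 for Cd177 (-0.37). The first 5 were barely altered without the 2 libraries farthest from the median of S100a8, at r 0.98 for S100a9, 0.85 for Retnlg, 0.84 for Ly6g, 0.80 for Ltf and 0.74 for Ngp, while Lcn2 came to 0.54 and Camp to 0.43. Ngp and Ltf had r 0.93, and Ngp and Camp 0.86. These are descriptions over 10 libraries that share their sequencing depth and their RNA with every gene: S100a8 had r 0.51 with library size and Retnlg 0.75, whereas Cd177 and Csf3r both had 0.05. The part of depth in these correlations was not tested.

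The fibroblast level (mean log2 CPM of the 19 markers) went with S100a8 in opposite ways in the treatment groups, so no r over both is given for it. It was 5.47, 4.60, 6.25, 5.63 and 3.19 in control monocyte libraries 1 to 5 and 1.42, 1.93, 3.71, 2.34 and 3.77 in treated ones. In control monocytes libraries 2 and 5, lowest for S100a8, were also lowest for the fibroblast level, whereas in treated monocytes libraries 1 and 2, highest for S100a8, were lowest for it. S100a9, Ngp, Camp, Ltf, Retnlg and Ly6g likewise changed the sign of the relation between the groups of 5. Lcn2, Csf3r and Cd177 were lower where the fibroblast level was higher in both groups, with r -0.60, -0.60 and -0.59 over the 10 deviations. The part of the fibroblast RNA in the spread of these genes was not tested. Within the variable part of the group, S100a9 kept near a fixed ratio to S100a8 on the nRPKM scale in treated libraries (1.61, 1.60, 1.51, 1.53 and 1.43), and ranged more in control ones (1.49, 1.04, 1.67, 1.79 and 0.736). The lowest ratios, 1.04 and 0.736, came from control libraries 2 and 5, which held the least S100a8 of their group.

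Lists of other genes were set beside S100a8 in the same way, over 15389 genes of which 53.7% had a positive r and 3.55% an r over 0.7 (median 0.04). Of 14 tested genes of mature neutrophils (a list that also holds Lcn2), 10 had a positive r and 8 an r over 0.7, with a median of 0.75. They included Cxcr2 (0.93), the chemokine receptor that brings neutrophils to tissue, Asprv1 (0.93), G0s2 (0.92), Stfa2l1 (0.91), Il1f9 (0.88) and Steap4 (0.86). The 4 with a negative r were Trem3 (-0.66), Padi4 (-0.52), Slfn4 (-0.47) and Mcemp1 (-0.41). Of 12 monocyte markers 1 had a positive r (median -0.45), and of 20 genes shared by neutrophils and monocytes 5 had (median -0.29). Of 12 macrophage markers 7 were positive (median 0.22), among them C1qa, C1qb and C1qc (0.81, 0.79 and 0.79), and of 19 fibroblast markers 6 were (median -0.11).

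Cd177 sided with other genes. Its r was 0.96 with Padi4 and 0.88 with Chil3, both of which had an r of -0.52 with S100a8. These genes were chosen for mention after their values were seen.

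**Figure D4:**
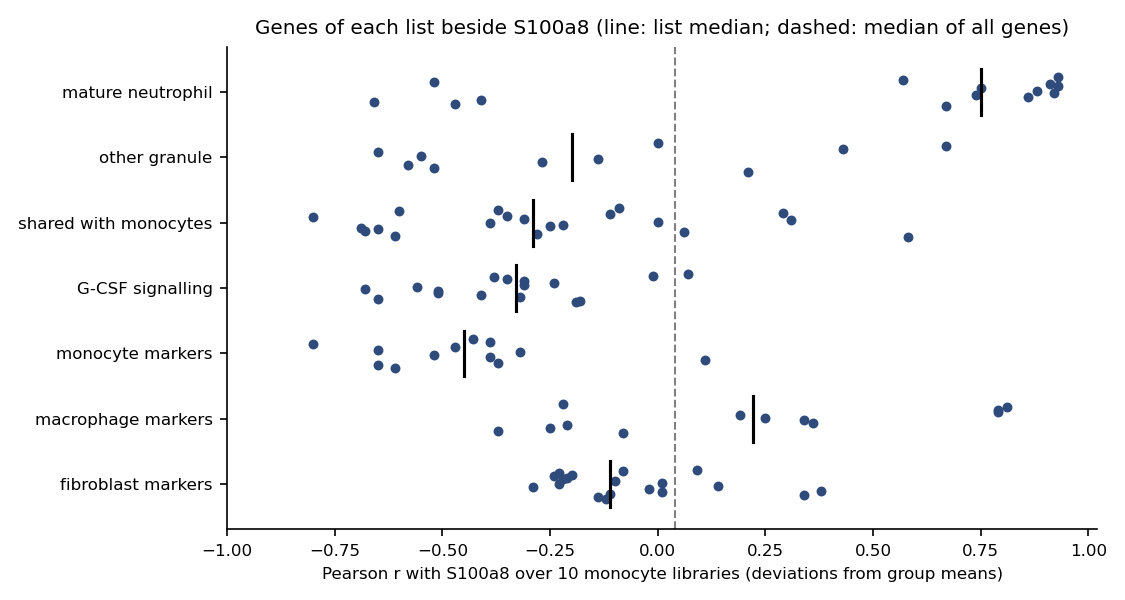
Pearson's r of each listed gene with S100a8 over the deviations of 10 monocyte libraries from their group means, with a point per gene, a solid line at each list's median and a dashed line at the median of all genes (0.04). The mature neutrophil genes split into a cluster of 10 above 0.5 and 4 genes below -0.4, and the monocyte markers lie mostly below 0 (median -0.45).

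By a rule set on all 20 deviations, the 5 genes most like S100a8 were Naglu (r 0.86), Hdhd3 (0.79), Noc2l (0.77), Cxcr2 (0.77) and Ghdc (0.76). Those most like Csf3r were Egfl8 (0.90), Uba7 (0.90), Parp11 (0.89), Kif5c (0.89) and Ttc9c (0.87), and those most like Lcn2 were Rcbtb1 (0.73), Dubr (0.72), Clmn (0.71), Wnk1 (0.68) and Icosl (0.66). No gene appears among the 5 of more than 1 of these members. Macrophage libraries held at most 30 reads of S100a8 and 12 of Lcn2, so these r values rest in part on libraries near the floor. In the 10 monocyte libraries alone, r was 0.86, 0.88, 0.88, 0.93 and 0.72 for the genes named with S100a8, in that order. For those named with Lcn2 it was 0.72, 0.63, 0.35, 0.55 and 0.75, and for those with Csf3r 0.84 to 0.91. The gene most like S100a8 was then S100a9 (0.98).

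Cxcr2 itself stood at 15.6, 2.07, 10.7, 10.9 and 2.07 CPM in control and 36.0, 26.9, 3.96, 14.4 and 6.67 CPM in treated monocyte libraries, and at means of 0.0569 and 0.0296 CPM in control and treated macrophages. Its lowest libraries, control 2 and 5 and treated 3, were those lowest for S100a8. Of 10 neutrophil markers outside the members, 7 were tested and all were lower in macrophages under both treatments, as were 20% (control) and 25.7% (treated) of all genes; those at about 0 in macrophages had to differ once they passed the filter. Their summed level ran from 167 to 347 CPM in control and 194 to 352 CPM in treated monocytes, most of it Il1r2 (means 160 and 210 CPM), a decoy receptor for interleukin-1, and none was at 0 throughout a monocyte group. In control macrophages the sum was 46.1 to 134 CPM with Mrgpra2b and Stfa2l1 at 0, in treated ones 61.2 to 87.2 CPM with Cxcr1, Mrgpra2b, Stfa2l1 and Itgb2l at 0. Primary granule genes differed in level. Prtn3, proteinase 3, ran from 3.13 to 12.3 CPM in control monocytes and from 1.71 to 4.41 CPM in treated ones, whereas the monocyte means of Mpo, myeloperoxidase, were 0.367 CPM (control) and 0.158 CPM (treated), and those of Elane, elastase, 0.216 and 0.0402. Mmp8, the neutrophil collagenase of specific granules, was higher, with means of 30.4 and 33.8 CPM in monocytes against 0.993 and 1.60 in macrophages, and its r with S100a8 was 0.00.

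All 14 tested mature neutrophil genes were lower in macrophages under both treatments (median log2 fold change -4.72 in control and -4.91 in treated tumours, against -0.00 and -0.01 over all genes). Of all genes tested, 20% were called lower in control and 25.7% in treated tumours, and genes such as Cxcr2, Asprv1 and Stfa2l1, which passed the filter through monocytes, had to differ, so the counts for these lists lend no support. They include Hdc (histidine decarboxylase, -4.74 and -5.90) and Cxcr2 (-7.06 and -9.05). Of 10 tested genes of other specific and tertiary granules, 7 were lower in control (Hp -7.54, Chil3 -7.92, Mmp8 -4.93), 2 were higher (Cd63 1.09, Mmp25 0.64) and Mmp9 was not called. In treated tumours 8 were lower and 1 was higher (Cd63 2.39). Of the 3 tested primary granule genes, Ctsg (-7.07 and -5.58) and Prtn3 (-4.22 and -3.64) were lower in macrophages. Genes of both neutrophils and monocytes were lower too, 17 of 20 in control and 18 of 20 in treated tumours, with Cebpb at -2.09 and -2.10, and Fpr1 higher at 0.87 and 1.15. In bulk RNA, fewer cells of a type and less RNA per cell cannot be told apart, and the share of any of these levels that came from neutrophils was not tested.

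Specific granule genes are known targets of C/EBP transcription factors, and the promoters of the members that moved with S100a8 are therefore shown where they hold a C/EBP-type motif. The motif TTNNGCAA was searched on both strands in the 250 bases before each start site in the RefSeq promoters of GRCm38.p6. All 10 members matched the table (11 start sites), and 6 of the 11 promoters held it, 1 for each of 6 members, compared with 9.56% of 32851 promoters. Each sequence reads 5′ to 3′ on the strand of its gene, with the motif in capitals.
S100a9 (chr3:90695939-90695968, minus strand): ggtaggctgtcTTGCTTAAgatttgggcgg
Retnlg (chr16:48872358-48872380, plus strand): agctTTCTGCAAggcattccagg
Ngp, upstream match (chr9:110419659-110419688, plus strand): gtcctggtttaTTGCCCAAacctccttgcc
Ngp, match at the start site (chr9:110419786-110419807, plus strand): accggcagttcTTGGGCAAggc
Ltf (chr9:111019206-111019235, plus strand): aggcaggcctaTTGGGCAAtagggtggggc
Lcn2 (chr2:32387937-32387966, minus strand): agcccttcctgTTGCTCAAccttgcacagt
Ly6g (chr15:75155018-75155047, plus strand): ctaggaaggggTTGAGCAAgttgcctcttt

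The letters are a description and no proof of binding. Of the 6 members with a match, S100a9, Retnlg, Ngp, Ltf and Ly6g had an r with S100a8 of 0.77 or more over the monocyte libraries, and Lcn2 had 0.67. These letters were not in the windows of S100a8, Camp, Cd177 and Csf3r, and a link of the motif to the r values was not tested. A second motif, GAGGAAG, the PU.1-type site, was in the promoters of S100a8, Lcn2, Ly6g and Csf3r, and in 10.6% of all promoters, and its matches overlapped none of those above. Ngp, Camp and Ltf lie on chromosome 9, Camp 570.4 kb from Ngp and Ngp 596.3 kb from Ltf.

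Treatment with anti-PD-L1 was followed by more Csf3r in monocytes. The mean rose from 130 ± 21.4 (SD, n = 5) to 212 ± 33.7 CPM, with every treated library above every control library, a log2 fold change of 0.71 ± 0.17 (SE, edgeR adjusted p = 0.0083). It was the one member called of 7 in monocytes, where 25.3% of all genes tested were called, 9.92% were called higher and 5.11% lay wholly above control. The call held in 20 of 20 fits without 1 library (adjusted p 0.00714 to 0.03). With the fibroblast level as a covariate it was 0.56 (edgeR adjusted p = 0.272), and without the 6 control libraries richest in fibroblast markers 0.58 (adjusted p = 0.181). In those fits 4 and 83 genes of all tested were called, against 3900.

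In macrophages Csf3r rose from 61.8 ± 15.7 to 96.4 ± 19.3 CPM, a log2 fold change of 0.64 ± 0.17 (edgeR adjusted p = 0.0454). Control library 3, at 86.6 CPM, lay above treated libraries 3 and 5 (77.3 and 78.4). Of the 7 members tested in macrophages 1 was called, where 4.65% of all genes were called, 1.73% were higher and 4.13% lay wholly above control. The call is close to the threshold: it was lost without macrophage control library 1 or 5, macrophage treated library 1, 3 or 4, monocyte control library 1 or 2, or monocyte treated library 1 (edgeR adjusted p 0.0526 to 0.116). With the fibroblast covariate Csf3r was at 0.50 (edgeR adjusted p = 0.641), without the 6 libraries at 0.62 (0.163).

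The other 6 tested members were not called for treatment in either cell type. In monocytes S100a8 had a log2 fold change of 0.20 ± 0.61 (edgeR adjusted p = 0.837), S100a9 0.21 ± 0.64 (0.842), Ltf -0.03 ± 0.47 (0.974), Retnlg 0.51 ± 0.74 (0.651) and Cd177 0.35 ± 0.30 (0.411). With a standard error above 0.6, changes of S100a8 or S100a9 smaller than the spread among libraries were not detectable. Lcn2 had a mean of 11.1 ± 6.07 CPM in control monocytes and of 5.30 ± 5.04 CPM in treated ones, a log2 fold change of -1.07 ± 0.54 (edgeR adjusted p = 0.153), and without treated library 1, its highest, the change was -1.87 (0.0229). With the fibroblast covariate the monocyte estimates turned to -0.76 for S100a8, -0.36 for S100a9 and -0.27 for Cd177, and without the 6 control libraries they were 1.98, 2.85 and -0.23. The controls left in that last fit, monocyte libraries 2 and 5, were the lowest of their group for S100a8 and S100a9. Cd177 without control library 5, its highest, came to 0.74 (edgeR adjusted p = 0.0261).

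In macrophages the fold changes were 0.68 ± 1.09 for S100a8 (edgeR adjusted p = 0.753), -1.55 ± 1.76 for S100a9 (0.645), 0.59 ± 0.57 for Ltf (0.58), 1.41 ± 0.89 for Lcn2 (0.368), 2.45 ± 0.98 for Retnlg (0.131) and 1.25 ± 1.06 for Cd177 (0.521). All 6 rest on means under 1 CPM. For Retnlg, treated macrophage libraries 3 and 4 held 1.09 and 2.12 CPM and the other 3 between 0.0586 and 0.514 CPM, against a control range of 0 to 0.340 CPM.

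**Figure D5:**
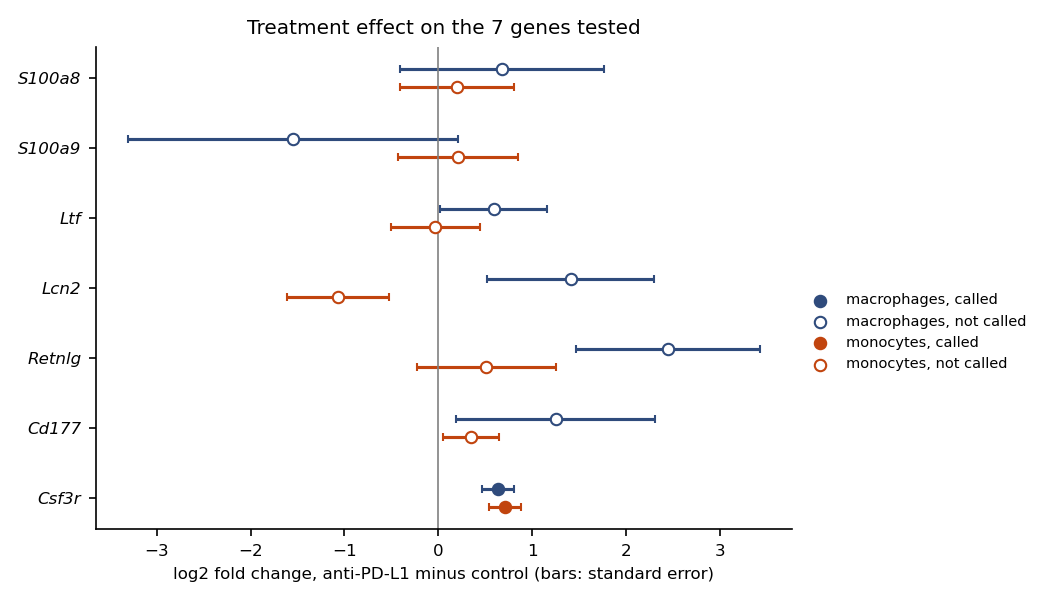
Log2 fold change of anti-PD-L1 minus control for the 7 tested genes in macrophages and monocytes, with bars for the standard error and filled points for genes called at an edgeR adjusted p of 0.05. Csf3r is called in both cell types (0.64 and 0.71), and the bars of S100a8 and S100a9 in monocytes cross 0.

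The treatment effects of the 2 cell types were compared by the interaction of cell type and treatment, as the effect in monocytes minus that in macrophages. None of the 7 members was called, as none (0%) of the 15390 genes was in edgeR, where 980 had an unadjusted p under 0.05. DESeq2 called 7 of all genes and limma-voom with neighbouring libraries as a block 8. For Csf3r the difference was 0.07 ± 0.24. For Lcn2 it was -2.47 ± 1.04 (edgeR adjusted p = 0.738). For S100a9 it was 1.76 ± 1.88, for Retnlg -1.94 ± 1.23, for Cd177 -0.90 ± 1.08, for Ltf -0.61 ± 0.74 and for S100a8 -0.48 ± 1.24.

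Of the 16 genes of a G-CSF signalling list, 11 rose in monocytes with anti-PD-L1, Csf3r among them, where 9.92% of all genes were called higher (median 0.43, all genes 0.02). Csf2rb2 rose by 0.59 (edgeR adjusted p = 0.0149), as did Csf2rb (0.44), near-identical genes of cytokine receptor beta chains whose reads may be split between them, and Il6ra, a receptor chain for interleukin-6, rose by 0.44 (0.0085). Stat3 (0.43), which relays the signal, and Socs3 (0.50), which inhibits it, rose as well. In macrophages Csf3r was the one gene of 16 called. In the same monocyte libraries 14 of 19 fibroblast markers fell with treatment (median -2.45), and none of the 16 was called with the fibroblast covariate (median 0.17). Without the 6 control libraries (median 0.13) none was called higher and Csf2ra, a receptor chain for granulocyte-macrophage colony stimulating factor, was called lower.

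Of all genes tested, 25.3% were called for treatment in monocytes (9.92% higher) and 4.65% in macrophages (1.73% higher). The genes of the neutrophil lists are to be read beside those shares. The 14 mature neutrophil genes had a median log2 fold change of 0.56 in monocytes (all genes 0.02), which was 0.31 with the fibroblast covariate and 1.28 without the 6 control libraries, where 16 were tested. For the neutrophil markers outside the members, none of which was called, the median was 0.40 over 7 genes, 0.38 with the covariate and 3.05 over 9 genes without the 6 libraries. The medians of 1.28 and 3.05 rest on monocyte libraries 2 and 5 as the only controls, the lowest of their group for S100a8 and Cxcr2. Of the mature neutrophil genes, Hdc rose in monocytes from 38.1 ± 7.38 to 83.0 ± 35.1 CPM (1.12 ± 0.22, edgeR adjusted p = 0.00424), and Trem3 rose in macrophages (0.56, 0.0482). Of 10 other granule genes, Mmp25 rose (0.99, edgeR adjusted p = 0.00585) and Cd63 fell (-1.57, 0.00386) in monocytes, and Mmp9, gelatinase B, fell in macrophages (-3.0, 0.0415). Of the primary granule genes, Prss57 fell in monocytes (-1.82, edgeR adjusted p = 0.0208), a direction that turned with the fibroblast covariate (0.13, adjusted p = 0.913). Of the 20 shared genes, 4 rose in monocytes, among them Fpr1 (1.19), Fpr2 (1.04) and Cebpd (0.23). In macrophages 4 rose too, among them the same 3 (1.46, 1.10 and 0.35), and S100a6 (-1.35) and Anxa1 (-0.64) fell. None of the listed genes named for treatment was called with the fibroblast covariate. Without the 6 control libraries Csf2ra alone of them was called, lower in monocytes.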

How the data were processed

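The 20 deposited tables, 1 per library, give for each Entrez gene a whole-number read count and an nRPKM, a normalised form of RPKM made by the authors in a way the sources used here do not give. The labels name a kit for stranded total RNA but give polyA RNA as the molecule, and which applies is not known; the submitters' processing notes name GSNAP and GRCm38; whether strand was used in counting is not given in the sources used here. Symbols came from RefSeq by Entrez identifier: 31049 of 36528 models matched (85.0%), holding 97.97% of reads. Counts were tested in edgeR 4.0.16 (R 4.3.3) with filterByExpr, TMM factors (0.838 to 1.18), 1 mean per group over all 20 libraries and the quasi-likelihood test, Benjamini-Hochberg adjusted over 15390 genes and called at 0.05. A standard error is the fold change divided by the root of F. CPM uses TMM-scaled library sizes, and log2 CPM a prior count of 0.5. Intervals for ratios and floors of 3 reads cover counting error only. Alternatives were other size factors, no filter, a fibroblast covariate, fewer libraries or groups, limma-voom (limma 3.58.1) and DESeq2 1.42.0. The fit was tested on simulated data. All 10 members are named, with set marker genes, the called genes of smallest p from each list, and the 5 genes most like S100a8, Csf3r and Lcn2; other names were chosen after their values were seen. Members and lists were chosen with earlier results of these data known. Libraries of a group differed by more than sampling noise (chi-square over degrees of freedom at least 20.45), and none was merged.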

Additional observations from a re-analysis of the deposited data

Results flagged for a closer look

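Of 30 pairings of a gene with a group of 5 libraries, 4 had 1 library apart from the other 4 by more than 0.71 of the group's range in CPM. For normally distributed values that limit marks about 1 in 20. CPM values are skewed and these genes vary together, so the 4 cannot be set against chance. Ngp stood at 5.82 CPM in control monocyte library 4 (the others at 0 to 1.24) and at 1.84 CPM in treated monocyte library 1 (the others at 0 to 0.294). Camp stood at 1.09 CPM in control monocyte library 4, where the others had 0.0334 to 0.113. Lcn2 stood at 14.2 CPM in treated monocyte library 1, where the others had 2.06 to 3.91. The libraries are the ones highest for S100a8 in their groups.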

How the results depend on the processing

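All 7 calls of macrophages against monocytes stayed in each setting, except Ltf in control tumours without the 6 control libraries richest in fibroblast markers. Some stayed near the threshold. For S100a9 the limma-voom adjusted p was 0.0318 (control) and 0.0422 (treated) with neighbouring libraries as replicate block, and 0.0176 and 0.0204 without it. Retnlg in control tumours had an edgeR adjusted p of 0.0468 without the 6 libraries. All but Csf3r passed the low-count filter through monocytes, so calls that stayed add little for them. Calls on treatment depended on how the fibroblast level was handled. That level was mostly higher in control libraries, and leaving out the 6 libraries leaves few controls, so the parts of fibroblast RNA, treatment and lost power cannot be told apart. The count of members called in macrophages, 1, was 0 with the fibroblast covariate, without the 6 libraries, with the groups compared alone and in limma-voom without the replicate block; in monocytes, 1, it was 0 in the first 2 of these. Over all genes the macrophage count, 715, was 2 with the covariate, 70 without the 6 libraries, 1193 with the groups compared alone, 243 in limma-voom with neighbouring libraries as replicate block, 191 without it and 1878 in DESeq2, and the monocyte count, 3900, was 4, 83 and 2019 in the first 3. The difference of effects, 0, was 8 with the block and 7 in DESeq2. The cause was not tested.

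Leaving out 1 library gave 7 to 8 members called for cell type in control and in treated tumours, 0 to 1 for treatment in macrophages, 1 to 2 in monocytes and 0 for the difference. Over all genes it gave 6000 to 7363, 7721 to 8643, 14 to 1928, 1883 to 5359 and 0 to 41. The lowest macrophage counts, 14, came without control library 5 or treated library 4.

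Some directions turned, in results that were not called except Prss57 in monocytes (0.13 with the covariate). With the covariate the monocyte effect was -0.76 for S100a8, -0.36 for S100a9, 0.02 for Ltf, -0.27 for Cd177, -0.01 for C1qa and -0.27 for Mmp8. Without the 6 libraries it was 1.24 for Ltf, -0.23 for Cd177, -0.17 for Ccr2 and -0.24 for Mmp8, the macrophage effect was 0.04 for Cxcr2, and the difference of effects was 1.67 for S100a8, 0.57 for Ltf and -0.04 for Csf3r. In limma-voom Ltf was 0.05 with the block and 0.06 without it, Epcam -0.06 in both, and the S100a8 difference 0.03 with the block. Without 1 library the monocyte effect ranged from -0.21 to 0.64 for S100a8, -0.23 to 0.80 for S100a9, -0.45 to 0.38 for Ltf, -0.00 to 0.26 for C1qa and -0.35 to 0.19 for Epcam, the macrophage effect from -0.12 to 1.26 for S100a8, and the difference from -1.07 to 0.31 for S100a8 and -0.13 to 0.14 for Csf3r.

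The labels carry no replicate numbers. Neighbouring sample numbers join 1 macrophage and 1 monocyte library; their deviations correlated at 0.173 to 0.698 in 10 pairs, and 9 of 10 macrophage libraries correlated best with their own neighbour, which is a hint from the data, not the design. Depth limits Ngp, Camp and Ly6g, and all members but Csf3r in macrophages.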
